A study of Mus musculus with 2 samples.

Results

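The genes described here are the semaphorins, a family of guidance ligands, and their receptors, the plexins and neuropilins. All 31 were chosen by gene family: 20 semaphorin genes as ligands, and 9 plexin genes and 2 neuropilin genes as receptors, out of 21883 protein-coding genes. ISL1, a LIM-homeodomain transcription factor, was mapped by CUT&Tag, in which an antibody in permeabilised nuclei steers the transposase Tn5 to cut and tag DNA close to its target. The material was retina from wild type mouse embryos at E13.5, in 2 samples of 1 group, with no treatment named. Retina at this stage holds dividing progenitors, newborn ganglion cells and other early neurons, and the assay gives 1 profile for the mixture. The labels do not say whether the samples came from separate embryos or litters, so agreement between them may be only technical. They name a pair of rabbit ISL1 antibodies without saying which sample received which. No control antibody was analysed here, so no interval is shown to need ISL1.

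Semaphorins steer growing axons and migrating neurons by binding plexins, whose cytoplasmic part acts on small GTPases and so on the cytoskeleton. Class 3 semaphorins are secreted and mostly bind neuropilins, which lend affinity to a complex in which an A-class plexin signals. Classes 4, 5 and 6 are transmembrane, and Sema7a is anchored by a lipid. In the retina and optic pathway, semaphorins and plexins are known for guiding ganglion cell axons through the optic chiasm and for sorting neurites into the layers of the inner plexiform layer.

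A window was the gene span with 50 kb added to each side, and every interval of either deposited list that touched it was counted. The windows held 414 intervals of replicate 1 out of 123923 and 431 of replicate 2 out of 158881. Windows of Sema3b and Sema3f overlapped by 27743 bp, and intervals there were counted for both genes but once in sums. Where intervals of the 2 lists overlapped by at least 1 bp they were joined into 1 shared peak. An interval is uneven where its total signal (coverage summed over its bases) is under 95% of its width times its maximum signal (its highest coverage), so that coverage changes along it. In the windows of the 31 genes, the intervals nearest that limit had 93.8% and 95.3%. Each of the 13704 shared peaks was ranked on total signal within each list, the 2 ranks were averaged, and rank 1 is the strongest. Read depth is unknown, so signals are given for each list and are not compared in size between them.

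The sequences of the 5 covered start regions the results turn on are shown first. RefSeq promoter sequences (build GRCm38.p6, 250 bases before to 50 after a start) were found for 26 of the 31 genes, with 37 promoters in all. Sema3b, Sema3f, Sema6a, Plxna1 and Plxna4 were not matched. Capitals mark matches to TAAT, the core of many homeodomain sites, or to GGGCGG, a GC box, on either strand, with overlapping matches allowed. The first 3 lie under a shared peak, Sema5b has an interval of each list, and Plxnb2 has the strongest interval on a start in either list.
Sema4b: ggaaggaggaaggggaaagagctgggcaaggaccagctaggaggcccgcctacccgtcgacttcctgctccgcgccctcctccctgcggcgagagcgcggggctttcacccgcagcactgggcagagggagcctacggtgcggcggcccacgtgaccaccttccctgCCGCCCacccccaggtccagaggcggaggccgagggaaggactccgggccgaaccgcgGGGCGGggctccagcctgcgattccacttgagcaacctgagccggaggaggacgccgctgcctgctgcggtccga
Plxnd1: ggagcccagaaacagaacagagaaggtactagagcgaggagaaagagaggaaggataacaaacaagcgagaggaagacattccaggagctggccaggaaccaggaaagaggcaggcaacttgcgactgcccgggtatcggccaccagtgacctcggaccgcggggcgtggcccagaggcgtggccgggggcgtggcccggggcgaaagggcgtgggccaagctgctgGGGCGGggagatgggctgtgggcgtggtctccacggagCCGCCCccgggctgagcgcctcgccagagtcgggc
Sema6d: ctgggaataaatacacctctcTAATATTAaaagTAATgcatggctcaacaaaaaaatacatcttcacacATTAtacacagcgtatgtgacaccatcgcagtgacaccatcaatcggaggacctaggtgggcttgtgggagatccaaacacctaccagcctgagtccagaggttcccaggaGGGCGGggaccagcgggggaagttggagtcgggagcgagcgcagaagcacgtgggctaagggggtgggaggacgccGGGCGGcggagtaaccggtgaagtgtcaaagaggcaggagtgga
Sema5b: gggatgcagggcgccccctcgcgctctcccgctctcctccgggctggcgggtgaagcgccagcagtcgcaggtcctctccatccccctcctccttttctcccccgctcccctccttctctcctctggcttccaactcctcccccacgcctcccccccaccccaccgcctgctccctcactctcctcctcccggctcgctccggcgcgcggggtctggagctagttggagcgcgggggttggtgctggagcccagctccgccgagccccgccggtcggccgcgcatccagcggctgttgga
Plxnb2: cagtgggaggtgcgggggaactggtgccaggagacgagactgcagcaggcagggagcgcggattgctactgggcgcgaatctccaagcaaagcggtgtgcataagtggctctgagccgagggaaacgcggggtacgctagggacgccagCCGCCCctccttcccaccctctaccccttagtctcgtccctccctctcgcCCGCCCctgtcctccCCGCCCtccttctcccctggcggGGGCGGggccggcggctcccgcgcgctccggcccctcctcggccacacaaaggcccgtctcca

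The Sema4b sequence (chr7:80198338-80198637, plus strand) surrounds the second of 2 listed starts of this class 4 semaphorin gene. It was the only one of these promoters where intervals of both lists overlapped each other: 186 of its 300 bases lay in an interval of replicate 1 and 120 in an interval of replicate 2, both with a maximum signal of 25. At Plxnd1, which encodes the plexin that Sema3e can bind without a neuropilin, the promoter (chr6:115994956-115995255, minus strand) lay whole inside an interval of replicate 1 with a maximum of 10. The overlapping interval of replicate 2, with a maximum of 27, ended short of it. At Sema6d, whose product acts at the optic chiasm, the shared peak reached only 7 bases into the promoter (chr2:124089719-124090018, plus strand), through replicate 2.

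Sema5b, a transmembrane semaphorin known to confine retinal neurites to the inner plexiform layer together with Sema5a, had an interval of each list on its promoter (chr16:35541112-35541411, plus strand). These did not overlap: the interval of replicate 1 ended at 35541136 and that of replicate 2 began at 35541147, and both had a maximum of 9. The promoter of Plxnb2, a receptor of class 4 semaphorins (chr15:89180739-89181038, minus strand), was covered over its full length in replicate 2, with a maximum of 56 and an uneven shape, and by no interval of replicate 1.

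Of the 37 member promoters, replicate 1 touched 9 (24.3%) against 15.2% of all 32851 RefSeq promoters, and replicate 2 touched 5 against 13.6%. Shared peaks touched 3 (8.11%) against 5.65% of all promoters, and intervals of both lists touched 2 (5.41%) against 4.73%. The percentage was above the background in replicate 1, and replicate 2 was near it. Over the 37 promoters, searched on both strands, TAAT was found in 16 (43.2%, against 58.0% of all promoters). The longer homeodomain words that contain it were rare: CTAATG was in 1 (7.36% of all promoters), TAATGG was in 1 (7.73% of all) and TAATTA was in 0 (5.29% of all). The E-box word CAGCTG was in 6 (16.3% of all) and CAGATG was in 2 (17.2% of all). GGGCGG was in 27 (73.0%, against 35.7%), and the median GC content was 63.7% against 52.7%, and the part of base composition in the motif counts was not tested. The Sema6d sequence, at 54.3% GC the lowest of the 5 shown, held 4 TAAT matches, and each of the others, at 67.0 to 73.0% GC, held 0. A match here is a match of letters only.

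Most of the 31 genes had a shared peak nearby. In total 24 of 31 genes (77.4%) had at least 1 of 47 shared peaks in the window, against 55.4% of all genes. Over all genes this percentage was higher the longer the window. Among windows under 150 kb, 11 of 17 members had one (64.7%) against 51.5% of all genes of that length. From 150 to 250 kb it was 4 of 5 against 63.3%, and above 250 kb it was 9 of 9 against 82.3%. A shared peak uneven in both lists was found for 6 of 31 genes (19.4%) against 7.54% of all genes, and against 6.74%, 8.35% and 14.8% in the 3 classes of window length. A shared peak within 1 kb of either end of the gene was found for 5 of 31 (16.1%) against 10.4%. By window length this was 1 of 17 (5.88%) against 9.56% under 150 kb and 0 of 5 against 13.3% from 150 to 250 kb. Above 250 kb it was 4 of 9 (44.4%) against 12.5%. Counts of 1 and 0 are too small to tell the shorter classes from the background, and 4 of 9 is also a small count. Of these 4, the Sema6d peak had a maximum of 1 in replicate 1, and the Sema3a peak lay away from its listed start. Where the overlap had to reach 50% of both intervals, the 5 members fell to 1. Counted per length, the windows held 0.673 shared peaks per 100 kb, against 0.581 for the merged windows of all genes. The median over members was 0.691, against 0.555 over all genes.

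**Figure D1:**
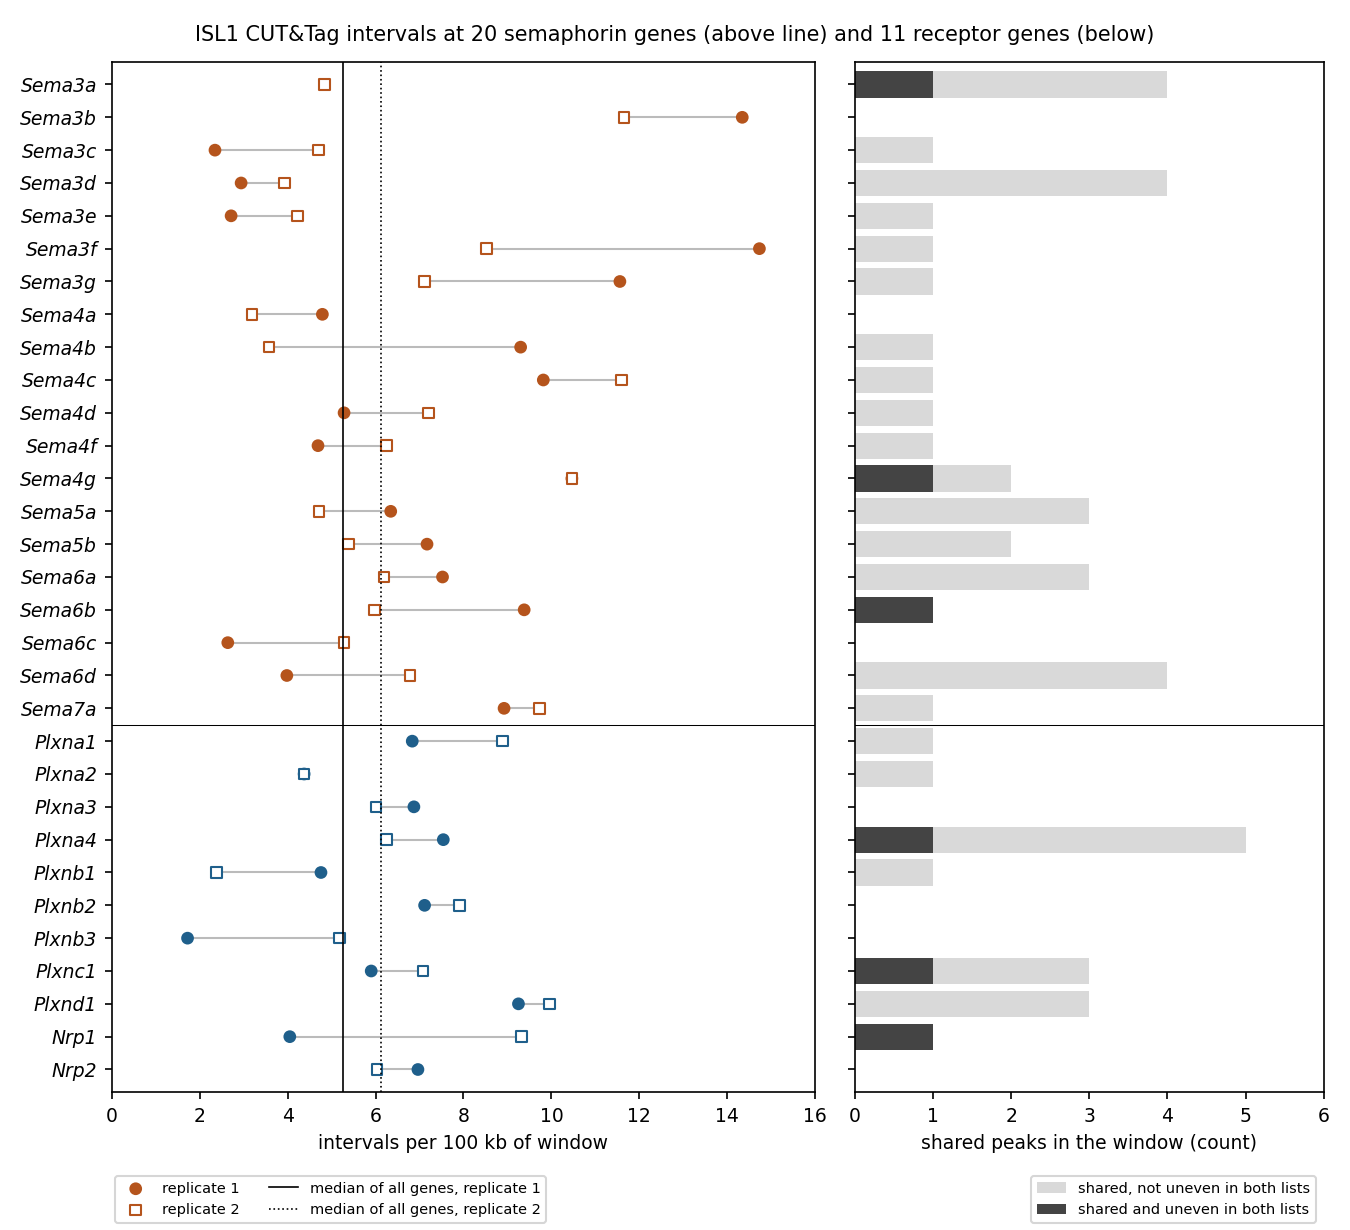
Left, intervals per 100 kb of window (x axis) for each gene (y axis) in replicate 1 (filled circles) and replicate 2 (open squares), ligands in brown and receptors in blue, with medians over all genes as vertical lines. Right, shared peaks per window, with those uneven in both lists in dark grey. Densities run from 1.72 at Plxnb3 to 14.7 at Sema3f, both in replicate 1, and 7 genes have no shared peak.

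Among the secreted class 3 ligands, the 4 genes on chromosome 5 and the 3 others differed in density. Intervals per 100 kb were 4.84 and 4.84 in replicates 1 and 2 at Sema3a, 2.35 and 4.70 at Sema3c, 2.94 and 3.92 at Sema3d, and 2.72 and 4.22 at Sema3e. They were 14.3 and 11.7 at Sema3b, 14.7 and 8.53 at Sema3f, and 11.6 and 7.11 at Sema3g. The first 4 have spans of 155 to 479 kb and were low in both lists, below the medians over all genes of 5.26 and 6.12. Over all genes with windows above 250 kb the medians were 4.69 and 5.80, and Sema3a in replicate 1 lay above the first. The last 3 have spans of 11.6 to 29.0 kb and were high in both lists, with no overlap between the sets. Values of Sema3b and Sema3f are not separate, because intervals where their windows overlap count for both. Span moved with density here, and its part was not tested.

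Sema3a encodes the prototype repellent of the family, which collapses growth cones through Nrp1 and A-class plexins. Its span is chromosome 5, 13124822 to 13603485 (mm10), and its window held 28 intervals in each list and 4 shared peaks. The best, at 13623058 to 13623797, lay 19573 bp outside the span, had maxima of 23 and 16 in replicates 1 and 2, ranked 1541 and was uneven in both lists, with 502 bp in common. Another, at 13125105 to 13125707, lay inside the gene within 1 kb of the lower end of the span, with maxima of 30 and 14. The start in the RefSeq promoter table is elsewhere, on the plus strand at 13396784, and neither list had an interval on that promoter. The other 2 shared peaks lay inside the gene, with maxima of 18 and 18, and of 22 and 1. Uneven intervals were 8 of 28 in replicate 1 and 2 of 28 in replicate 2, so the lists had equal numbers at this gene but not equal shapes.

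Sema3d, another secreted ligand, also had 4 shared peaks (maxima 22 and 9, 20 and 15, 2 and 1, and 2 and 1). The best, at chromosome 5, 12492892 to 12494125 inside the gene, ranked 1791, but its intervals had only 18 bp in common. Sema3e had 1, inside the gene, with maxima of 32 and 35 and 95 bp in common, and Sema3c had 1 with maxima of 3 and 3. The peak of Sema3f had the highest maximum of replicate 1 among the 47, at 64, against 17 in replicate 2, and lay 24389 bp outside the span and nearer to Rbm5. The peak of Sema3g (15 and 17, with 38 bp in common) lay 11835 bp outside, at an end of Nisch. Sema3b had 16 and 13 intervals and no shared peak.

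Class 4 semaphorins are transmembrane ligands, several of which bind B-class plexins. In these 6 windows 6 shared peaks were counted, 3 inside the genes. Sema4d, the ligand of Plxnb1, had 1 inside the gene at chromosome 13, 51758761 to 51759650, with maxima of 12 and 24, rank 948 and 326 bp in common. Sema4c, a ligand of Plxnb2, had a peak with maxima of 59 and 30 and rank 470, but 36245 bp outside the gene and at an end of Cnnm3. Sema4g had a peak uneven in both lists (30 and 8, with 67 bp in common) 13539 bp outside the gene, with its midpoint inside Lzts2. A further one had maxima of 1 and 12. The peak of Sema4b was the one on its second start described above, with rank 3241. Sema4f had a weak one inside the gene (8 and 2), and Sema4a had 6 and 4 intervals and no shared peak. Of the 2 best-ranked peaks in these windows, that of Sema4d lay inside the gene and that of Sema4c did not.

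Class 5 ligands gave 5 shared peaks, all inside the genes. Sema5a had 35 and 26 intervals over a span of 452 kb and 3 shared peaks. The best lay at chromosome 15, 32352452 to 32353723 (22 and 11, rank 1237). The others lay at 32423804 to 32424443 (18 and 8, with 47 bp in common) and at 32245159 to 32246268 (3 and 7). The last lay within 1 kb of the lower end of the span, and RefSeq lists the start of the gene at that end, on the plus strand, but no interval touched the promoter itself. Sema5b had 2, each with a maximum of 1 in replicate 1 and with 12 and 6 in replicate 2. The strongest single intervals of both genes were not shared: the highest maxima were 25 and 33 at Sema5a and 35 and 32 at Sema5b.

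Class 6 ligands bind A-class plexins, and Sema6a is known to act with Plxna4 and Plxna2 in retinal layering. Sema6a had 3 shared peaks, the best 39146 bp outside the gene at chromosome 18, 47205683 to 47206108, with maxima of 16 and 19 and rank 2755. The others had maxima of 23 and 3, and of 21 and 1. Sema6d, which acts at the optic chiasm through Plxna1, has the longest span of the 31 (578 kb) and had 4 shared peaks. The best lay inside the gene at chromosome 2, 124309815 to 124310230 (18 and 19, rank 2682). The 3 others, including the one at the gene end (1 and 22), had a maximum of 1 in 1 of the lists. Sema6b had a single peak with maxima of 35 and 54, the highest maximum of replicate 2 among the 47, with rank 625 and an uneven shape in both lists. It lay 43418 bp outside the gene, within 1 kb of ends of Hdgfl2 and Ubxn6. Sema6c had 3 and 6 intervals and no shared peak.

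Sema7a, the lipid-anchored ligand of Plxnc1, had 1 shared peak at chromosome 9, 58008804 to 58009185, with maxima of 42 and 32, rank 413 and 314 bp in common. It lay 45939 bp outside the gene with its midpoint inside Cyp11a1, and had the second-best rank of the 47. Of all member peaks this one lay farthest from its gene. The nearest shared peak left out by the 50 kb limit lay 51458 bp from Sema4d.

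Receptor genes had the best-ranked member peak. Nrp1 encodes the co-receptor of Sema3a, which also binds a form of VEGF and is known for helping ganglion cell axons cross at the chiasm. Its span is chromosome 8, 128358591 to 128505476, and its window held 10 intervals of replicate 1 and 23 of replicate 2. The shared peak lay at 128541585 to 128542155, 36109 bp outside the gene, with maxima of 24 and 44 and rank 384. The intervals of the 2 lists began at 128541585 and 128541588, had 548 bp in common and were both uneven. No gene end was nearer to it than that of Nrp1. Inside the Nrp1 span no shared peak was found. Nrp2, the related co-receptor for Sema3f, had 15 and 13 intervals and no shared peak, although its strongest intervals in the 2 lists (31 at 62840219 to 62840436 and 26 at 62839768 to 62839931) lay near each other on chromosome 1, outside the gene.

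A-class plexins are the signalling partners of the neuropilins and the receptors of classes 5 and 6. Plxna4, needed for responses to Sema3a in many neurons, had the most shared peaks of any member: 5, all inside its span (chromosome 6, 32144543 to 32588192), from 41 and 34 intervals. The best, at 32288617 to 32289074, had maxima of 38 and 36, rank 1280 and an uneven shape in both lists, with 85 bp in common. Another at 32587233 to 32587484 lay at a gene end, with maxima of 21 and 25. A further one inside the gene had 21 and 18, with 36 bp in common. The remaining 2 had a maximum of 1 in replicate 1, 11 and 17 in replicate 2, and identical ends in both lists. Plxna1 had 1 peak outside the gene (22 and 20) and Plxna2 had 1 inside (11 and 18, with 34 bp in common). Plxna3 had 8 and 7 intervals and no shared peak. Per 100 kb, Plxna4 had 0.920 shared peaks, against a median of 0.399 over all genes with windows above 250 kb.

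B-class plexins had 1 shared peak among 3 genes, at Plxnb1, with maxima of 1 and 18, identical ends and a midpoint inside Atrip. Plxnb2 (9 and 10 intervals) and Plxnb3 (2 and 6) had none. Plxnc1, the receptor of Sema7a, had 3. One lay 1571 bp from a gene end at chromosome 10, 94943206 to 94943682 (29 and 28, rank 1317, 173 bp in common). Another inside the gene was uneven in both lists (21 and 6, with 74 bp in common), and 1 lay outside (8 and 27). Plxnd1 also had 3, the highest density of any member at 2.13 per 100 kb. They were the peak at its start described above (10 and 27, rank 1111, 153 bp in common) and a weak one with identical ends (1 and 3). The other lay 20490 bp outside and nearer to Tmcc1 (20 and 14), with only 30 bp in common. For the 7 members without a shared peak, a count of 0 allows a shared percentage of up to 18.8 in replicate 1 at Sema3b and 20.0 at Nrp2, while the fewest intervals, at Plxnb3, set no limit there (3 counts of the total, counting error only).

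**Figure D2:**
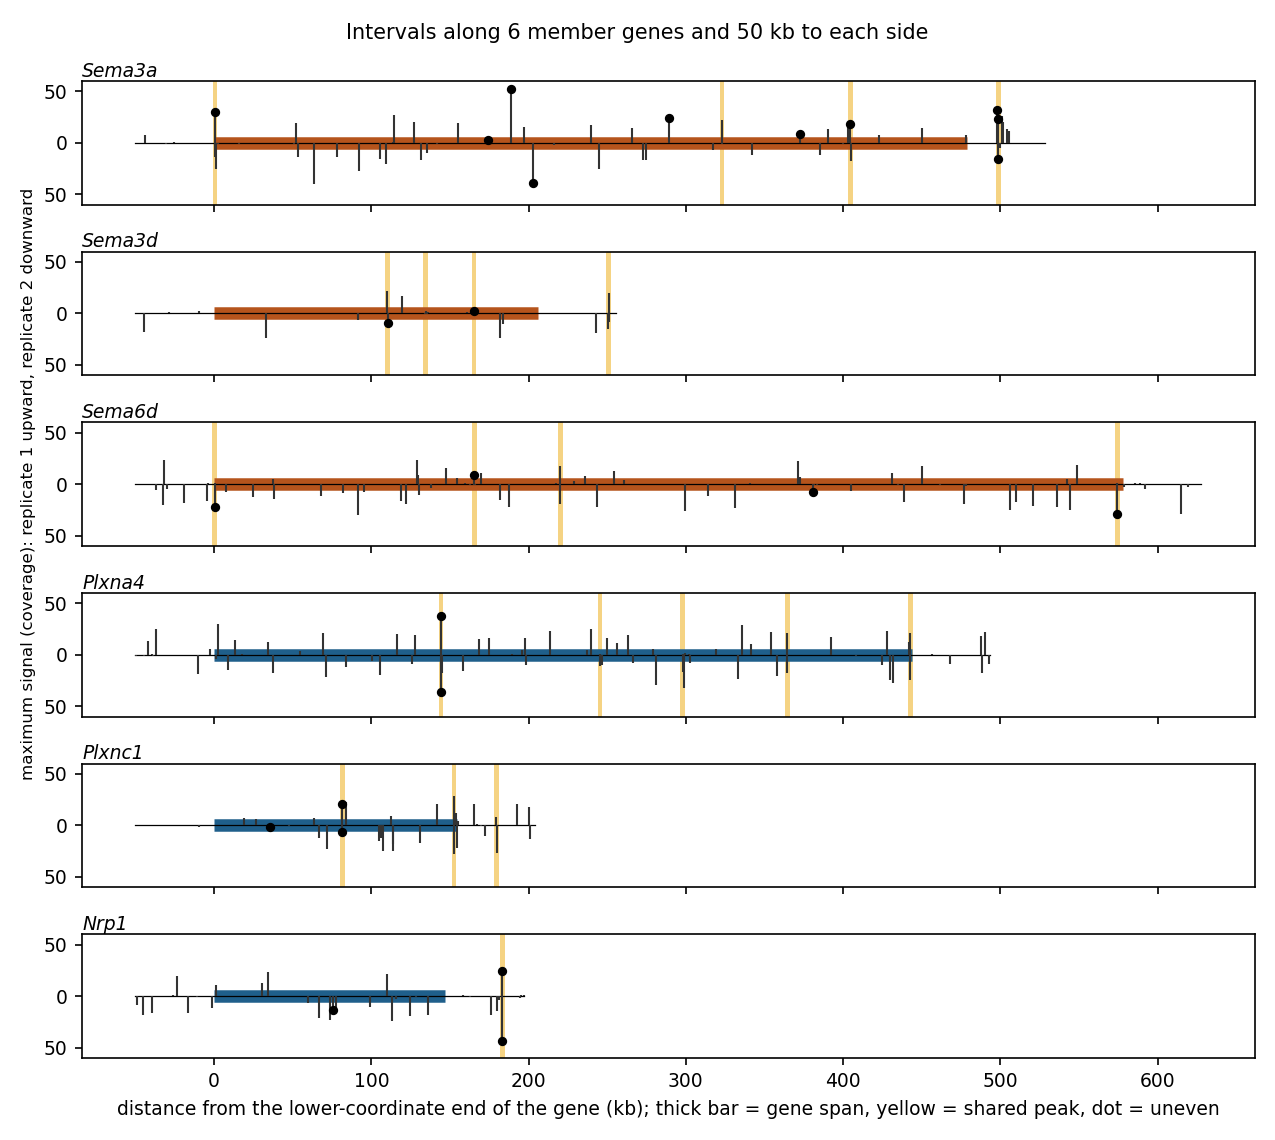
Intervals along 6 member genes, drawn by distance in kb from the lower-coordinate end of the gene (x axis), with the maximum signal of replicate 1 upward and of replicate 2 downward (y axis). Thick bars are gene spans, black dots uneven intervals, and yellow bands, drawn wider than the peaks, shared peaks. All 5 shared peaks of Plxna4 lie inside its span, while the only one at Nrp1 lies 36109 bp beyond the gene.

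Position and strength of the 47 shared peaks were summarised next. Inside the member genes lay 31 (66.0%, 95% Wilson interval 51.7 to 77.8). In the windows of all genes, 63.9% of shared peaks lay inside a gene, but there any gene counted. For the 47 only the member itself counted, so these percentages are not alike. Others of the 47 had midpoints inside Nisch, Cnnm3, Lzts2, Pdzd7, Cyp11a1 and Atrip. Within 1 kb of an end of any protein-coding gene lay 8 (17.0%), against 2060 of all 13704 shared peaks (15.0%). All 2060 lie among the 9803 shared peaks in the windows of all genes, of which they are a larger part. So 17.0% is not shown to be above the background of gene windows. Of these 8, 5 were at ends of the members and 3 only at ends of neighbouring genes. The better-ranked 50% of all shared peaks held 37 of the 47 (78.7%, 65.1 to 88.0), and the median rank was 4890 of 13704. A maximum of 10 or more in both lists was found for 24 (51.1%, 37.2 to 64.7) against 28.5% of all shared peaks. A maximum of 1 in at least 1 list was found for 14 (29.8%, 18.7 to 44.0) against 44.7%. The background for rank and maximum is all 13704 shared peaks, including those outside gene windows. In replicates 1 and 2, intervals with a maximum of 1 made up 17.7% and 21.4% in the windows of all genes. Over the whole lists they made up 21.3% and 24.7%. Rank and maximum were not compared with shared peaks of gene windows alone. No member interval reached a maximum above 100. Both ends were identical in the 2 lists for 6 of the 47 (12.8%) and for 1850 of the 13704. All 6 had a maximum of 1 in a list, as did 1761 of the 1850. The 6 lay at Plxna4 (2), Plxnb1, Plxnd1, Sema4g and Sema6a. The Wilson intervals in this paragraph describe counting error alone. They would not cover copies made by PCR, which are not separate molecules, and whether duplicates were removed is not known.

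**Figure D3:**
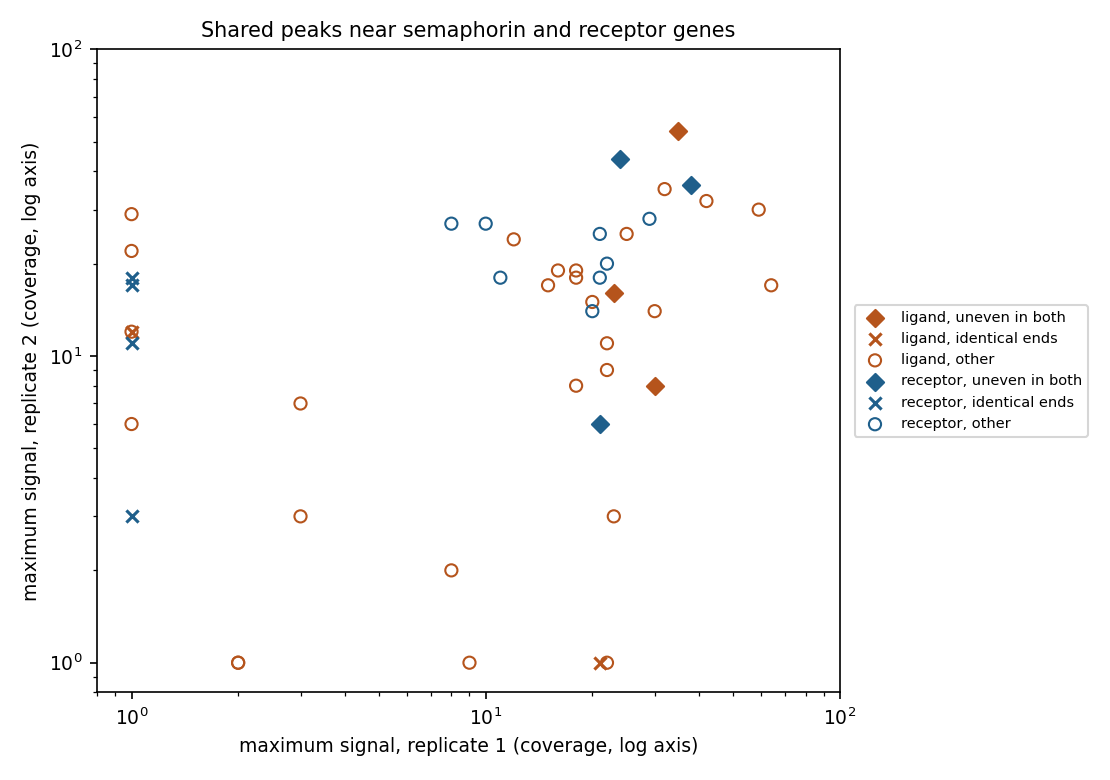
Maximum signal of each of the 47 shared peaks in replicate 1 (x axis) and replicate 2 (y axis), as coverage on log axes, for ligands (brown) and receptors (blue). Diamonds are uneven in both lists and crosses have identical ends. A group of 24 peaks has 10 or more on both axes, and all 6 crosses lie at 1 on an axis.

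Ligand and receptor genes were then compared, as the choice of families asks. In merged windows of 4.66 Mb the ligands held 32 shared peaks, or 0.687 per 100 kb, and in 2.33 Mb the receptors held 15, or 0.644 per 100 kb. The difference of 0.0431 has an interval of -0.388 to 0.392 (from the 95% Wilson interval of the ligands' part of the 47). It was 0.172 without pairs with identical ends and 7.93e-05 with maxima above 1 only. It was below 0 within the gene spans alone (-0.0315), with a reciprocal overlap of 50% (-0.129), with centres within 200 bp (-0.129) and without peaks at ends of other genes (-0.0214). The difference is small beside that interval. By gene, 17 of 20 ligands (85.0%) and 7 of 11 receptors (63.6%) had a shared peak, with medians of 0.745 and 0.405 per 100 kb. The ranges overlapped almost fully, 0 to 1.74 for ligands and 0 to 2.13 for receptors. Both sets held 3 genes with a peak uneven in both lists: Sema3a, Sema4g and Sema6b among ligands, and Plxna4, Plxnc1 and Nrp1 among receptors. Of these ligand peaks 0 and of these receptor peaks 2 lay inside the gene.

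Shared intervals made up 12.1% of 272 ligand intervals (Wilson 8.77 to 16.5) and 10.6% of 142 receptor intervals (6.51 to 16.7) in replicate 1. In replicate 2 they made up 11.6% of 277 (8.30 to 15.9) and 9.74% of 154 (5.99 to 15.4). The mean difference was 1.69 percentage points ± 0.172 (SD, n = 2). Both lists count the same overlaps, so this SD understates the error, and the Wilson intervals overlap widely. With a reciprocal overlap of 50% the difference was -1.77 and with centres within 200 bp it was -1.56. Over each whole list the shared percentage was 11.5 and 8.91.

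Uneven intervals made up 10.3% (7.22 to 14.5) of ligand and 7.04% (3.87 to 12.5) of receptor intervals in replicate 1, and 5.42% (3.31 to 8.74) and 5.19% (2.66 to 9.91) in replicate 2, against 6.01% and 5.79% over the whole lists. The difference of 1.74 ± 2.14 percentage points (SD, n = 2) is smaller than the spread between replicates. It was 3.25 in replicate 1 alone and 0.220 in replicate 2 alone. Within the ligands, class 3 had 15.1% uneven in replicate 1 (9.18 to 23.7) and 6.19% in replicate 2 (2.87 to 12.8). Of the 14 uneven class 3 intervals in replicate 1, 8 were at Sema3a alone, so this percentage rests largely on 1 gene. Class 4 had 13.6% and 5.26%, class 5 had 5.88% and 0%, and class 6 went the other way between replicates, with 3.45% and 8.22%. With 2 samples of 1 group, no test between sets was made, and genes and intervals are not replicates.

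**Figure D4:**
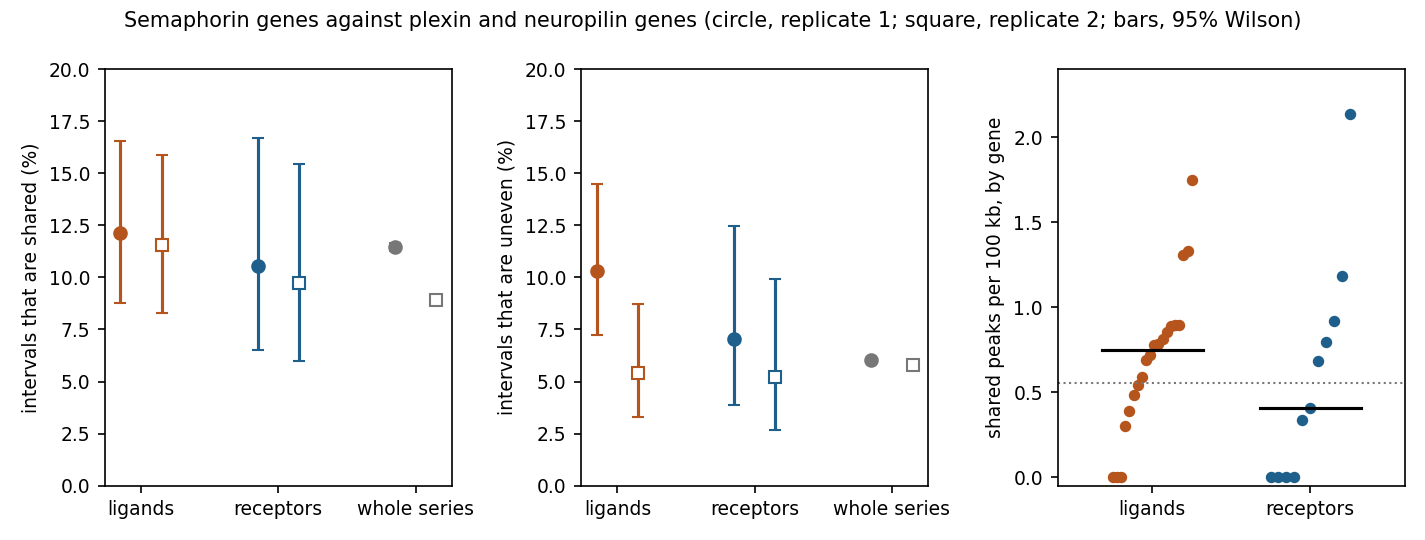
Left and middle, percentage of intervals that are shared and that are uneven (y axes) for ligand windows, receptor windows and the whole lists, in replicate 1 (circles) and replicate 2 (squares), with 95% Wilson intervals as bars. Right, shared peaks per 100 kb for each gene, with medians as black bars and the median over all genes (0.555) as a dotted line. Bars of ligands and receptors overlap in both lists, and the genes of both sets spread from 0 to above 1.7.

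Other genes of semaphorin signalling were taken from a list of 35: co-receptors, plexin effectors and the collapsin response mediators, which relay Sema3a signals to microtubules. Of these, 28 (80.0%) had a shared peak in the window, against 55.4% of all genes. By role it was 8 of 11 co-receptors, 15 of 19 effectors and 5 of 5 collapsin response mediators. The median window of the list was 150 kb against 117 kb over all genes. Over all genes, longer windows held a shared peak more often. Counted per length, the list had 0.864 shared peaks per 100 kb, against 0.581 for the merged windows of all genes. Percentages for the list were not split by window length, and the part of length was not tested. A peak uneven in both lists was found for 4 (11.4%, against 7.54%), namely Chl1, Dpysl2, Dpysl3 and Kdr, and a shared peak at a gene end for 3 (8.57%, against 10.4%), namely Limk1, Ptk7 and Rac1. Kdr, Limk1, Ptk7 and Rac1 were named after their values were seen. The best-ranked peak was that of Chl1, an L1-family co-receptor, inside the gene, with maxima of 1009 and 1992 and rank 18. Both maxima are above 100, the limit for very high intervals in the alternatives. The highest among the 47 member peaks were 64 and 54. Why the Chl1 signal is so high was not tested. Dpysl2, the founding collapsin response mediator, had a peak inside the gene at chromosome 14, 66868626 to 66869387, with 35 and 43 and rank 241. Dpysl4 (31 and 19, nearest Jakmip3), Dpysl3 (31 and 48, nearest Stk32a) and the GTPase gene Rnd1 (25 and 19, nearest Cacnb3) followed, with peaks 9836, 40847 and 34018 bp outside the genes. Of these 5 peaks, 2 lay inside the listed gene, and 4 were nearer to an end of another gene, since an end of Pnma2 is the nearest to the Dpysl2 peak.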

How the data were processed

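CUT&Tag with an ISL1 antibody was carried out on retina at E13.5 in 2 samples, and the authors deposited 1 list of intervals per sample. FastQC, Bowtie2, MACS2, SEACR and the build mm10 appear in the submitters' processing notes. Not given in the sources used here are the caller of the lists, its threshold, any control track and duplicate removal. Total and maximum signal were used as the authors deposited them, in whole numbers of coverage with no sign of scaling.

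The autosomes, X and Y were used, with 1-based coordinates. Gene spans came from a RefSeq table of assembly GRCm38.p6, with all symbols matched and no strand, so either end of a span stood for the start in counts at gene ends. The 31 members, the list of 35 further genes and the measures were chosen with earlier results of these data known. Members described in full were those with an uneven or gene end shared peak, the 6 with most shared peaks (ties included), the 6 with the best-ranked peak and those with none. Percentages carry 95% Wilson intervals. Counts were made with Python 3.11.15, pandas 2.3.3, numpy 2.4.6 and scipy 1.17.1. The code was checked on a simulated pair of lists, in which 200 of 200 planted genes were recovered. The planted pairs overlapped over most of their width and were uneven in both lists, while every background interval was flat. Recovery was therefore built in, and it does not measure how well small overlaps in the real lists are judged. Alternatives changed the window, the definitions of shared, uneven and gene end, the threshold, list lengths, and identical or very high intervals.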

Additional observations from a re-analysis of the deposited data

How the results depend on the processing

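Across the alternatives run on 7 results, 54 of 78 values kept their direction and stayed within the error set for the result (1 SD between replicates, the counting interval, or 1.5 times for a count), 18 moved beyond it and 6 changed sign. For the differences per 100 kb and in uneven percentage that error is wider than the value itself. A single replicate of 2 always lies within 1 SD of their mean, and no member interval had a maximum above 100. Values for single replicates and without maxima above 100 therefore could not leave the error, and all are among the 54. The 47 shared peaks became 31 with no extension of the gene, 76 with 100 kb, 18 with a reciprocal overlap of 50%, 30 with centres within 200 bp and 22 in the stronger 50% of each list. Members with a shared peak fell from 24 to 15 with no extension and to 15 with the reciprocal overlap. Members with a peak uneven in both lists fell from 6 to 2 and 3 under the same settings. Members with a peak at a gene end fell from 5 to 1 with the reciprocal overlap, 3 with centres within 200 bp and 3 in the stronger 50%.

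The ligand minus receptor difference in shared percentage was -1.77 with the reciprocal overlap, -1.56 with centres within 200 bp, 0.772 with maxima above 1, 3.54 without identical pairs, 1.21 in the stronger 50%, 0.512 with 100 kb and 2.60 with 20 kb; each replicate alone gave 1.57 to 1.81, although sharing needs both lists. The difference per 100 kb, reported as 0.0431, was 0.172 without identical pairs, 7.93e-05 with maxima above 1, 0.00428 with 100 kb, 0.0216 with equal list lengths, 0.0215 in the stronger 50%, -0.0315 with no extension, -0.129 with either stricter overlap (-0.12878 and -0.12875) and -0.0214 without peaks at ends of other genes, a setting chosen after seeing the data. The difference in uneven percentage was 4.01 with any shortfall counted as uneven, 1.004 with a limit of 90%, 0.749 with 100 kb, and 0.220 to 3.25 in single replicates. The cause of these changes was not tested. No member interval exceeded a maximum of 100, so leaving these out changed nothing. No paired analysis was possible because the samples form 1 group. Depth is unknown, so whether a missing shared peak reflects too few reads cannot be told.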

Other observations

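Beside the genes, 16 shared peaks lay up to 50 kb outside the members and 29 lay from 50 to 100 kb outside. The same belts were not counted over all genes, so the difference is not shown to be particular to these genes. Among unshared intervals, Sema3a had 1 with a maximum of 52 in replicate 1 (chromosome 5, 13313518 to 13314143) and 1 with 39 in replicate 2 (13327535 to 13327989), both uneven, inside the gene. In the overlap of the Sema3b and Sema3f windows, replicate 1 had 3 uneven intervals with maxima of 18, 16 and 28, and replicate 2 had no uneven interval there. Sema4c had an uneven interval of replicate 1 on its second listed start, with a maximum of 12, and an interval of replicate 2 on its other start, with 5.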
